A study of Homo sapiens with 6 samples.

Results

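The transcripts described here encode the enzymes that write, copy and remove methyl groups on cytosine, together with the proteins that guide them. They are the genes DNMT1, DNMT3A, DNMT3B, DNMT3L, TET1, TET2, TET3, UHRF1, UHRF2 and TDG, which were chosen by name through their Ensembl identifiers (GENCODE 44) and make up 10 of the 19977 genes counted in each library. All 10 passed the limit of at least 10 counts over the 6 libraries and are among the 16505 genes tested. DNMT3L passed it narrowly, with 12 counts.

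The libraries come from NCRM-1, a wild type human induced pluripotent stem cell (iPSC) line, grown as aggregates for 4 days in vertical wheel bioreactors. In the PEG and HS group (3 libraries), Essential 8 (E8), a defined medium for pluripotent cells, held 10 mg/ml polyethylene glycol (PEG) and 0.1 µg/ml heparin sodium salt (HS). In the E8 control group (3 libraries) it held neither. In both groups 50% of the medium was exchanged on day 2. The treatment text of the labels names both additives for all 6 libraries, so the group of each library follows its own treatment field. The labels read as a single vessel for each medium. If so, medium and vessel cannot be told apart, and the SDs and p-values describe samples drawn from a vessel, whose spread may be technical. All libraries come from a single line, the study's methods name the ROCK inhibitor Y-27632 at seeding for both media, and bulk RNA cannot separate fewer cells of a kind from less RNA per cell.

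DNA methylation in mammals is placed mainly on cytosines followed by guanine (CpG). DNMT3A and DNMT3B set new marks, with DNMT3L as a partner that has no catalytic activity of its own, and DNMT1 copies marks onto the new strand after replication, brought there by UHRF1. TET enzymes oxidise methylcytosine, and TDG cuts out the oxidised base so that repair can restore an unmethylated cytosine. Human pluripotent cells in the primed state carry dense methylation and are known for high DNMT3B, whereas the naive state is hypomethylated and is marked by DNMT3L.

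DNMT3A and TET1 were higher in PEG and HS, by 12.1% and 11.8%, while TET2 and TET3 were lower, by factors of 0.716 and 0.929. DNMT1, UHRF1, UHRF2, DNMT3B and TDG did not pass the test, and each lay within 10% of its E8 control level. DNMT3L was barely detected in either medium. In all, 4 of the 10 genes were called, 2 higher and 2 lower. Over all genes tested 25.3% were called, 12.2% as higher and 13.1% as lower. The median log2 fold change of the 10 genes was 0.0087 and that of all tested genes 0.0031. Genes were tested with the quasi-likelihood test of edgeR and called where the p, adjusted by Benjamini-Hochberg over all 16505 genes, was under 0.05. Log2 fold changes are those of PEG and HS over E8 control.

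Changes were small in DNMT3A, TET1 and TET3. That of TET2 was larger in absolute log2 fold change than those of 86.2% of all tested genes. None of the 4 called genes changed by at least 1.5-fold, a size that 4.43% of all tested genes reached together with the adjusted p. In 7 of the 10 genes no E8 control library reached into the range of the PEG and HS libraries in CPM (counts relative to library size, with TMM factors), against 39.3% of all tested genes. For a single gene, an exact two-sided permutation test of 3 libraries against 3 can give no p below 0.1. Any gene without overlap reaches that p, so for these 7 genes the test adds nothing to the lack of overlap. The log2 fold changes with their intervals are plotted for the 9 genes with enough counts.

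**Figure D1:**
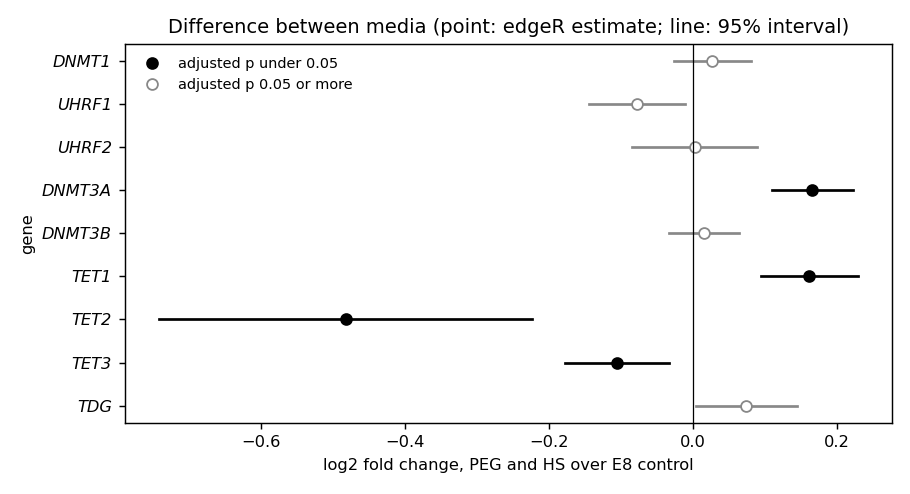
Log2 fold change of 9 genes (vertical axis) between PEG and HS and E8 control (horizontal axis), with edgeR's estimate as a point and its 95% interval as a line, filled where the adjusted p is under 0.05. DNMT3A and TET1 lie right of 0 at 0.17 and 0.16, TET3 and TET2 lie left of 0 at -0.11 and -0.48, and TET2 has the widest interval. DNMT3L, with 12 counts in all, is left out.

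The start regions of the genes that changed, and of the maintenance pair DNMT1 and UHRF1, are shown because they carry the CpG sites and short motifs that distinguish these genes at the level of sequence. Each runs from 250 bases before to 30 bases after the start of the GENCODE canonical transcript, 5′ to 3′ on the gene's strand, from RefSeq (GRCh38.p14). Capitals mark the GC box GGGCGG, the E-box CACGTG and the E2F sequences TTTCCCGC, TTTCGCGC, TTTGCCGC and TTTGGCGC, each searched on both strands, and no match overlaps another. The CRE sequence TGACGTCA was searched as well and had no match in these genes, against 1.83% of all 34943 RefSeq start regions cut to the same length. A match is a run of letters, not a shown binding site. A region at the canonical start was found for 8 of the 10 genes, all but DNMT3B and DNMT3L. RefSeq lists several start regions for DNMT3A (6), TET1 and UHRF1 (3 each), and TET2 and TET3 (2 each). Only the region at the canonical start was read, and which start these cells use was not examined.
DNMT3A, chr2:25341896-25342175, minus strand: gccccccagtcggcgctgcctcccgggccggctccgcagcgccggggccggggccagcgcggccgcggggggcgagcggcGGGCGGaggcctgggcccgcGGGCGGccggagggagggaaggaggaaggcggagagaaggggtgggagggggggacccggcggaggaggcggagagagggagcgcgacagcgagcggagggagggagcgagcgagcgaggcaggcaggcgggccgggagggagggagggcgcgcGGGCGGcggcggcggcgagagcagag
TET1, chr10:68560087-68560366, plus strand: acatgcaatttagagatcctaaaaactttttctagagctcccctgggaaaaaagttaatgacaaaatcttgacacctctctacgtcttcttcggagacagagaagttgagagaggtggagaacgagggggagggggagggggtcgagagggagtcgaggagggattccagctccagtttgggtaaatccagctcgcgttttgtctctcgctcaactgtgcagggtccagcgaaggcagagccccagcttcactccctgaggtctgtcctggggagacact
TET2, chr4:105146626-105146905, plus strand: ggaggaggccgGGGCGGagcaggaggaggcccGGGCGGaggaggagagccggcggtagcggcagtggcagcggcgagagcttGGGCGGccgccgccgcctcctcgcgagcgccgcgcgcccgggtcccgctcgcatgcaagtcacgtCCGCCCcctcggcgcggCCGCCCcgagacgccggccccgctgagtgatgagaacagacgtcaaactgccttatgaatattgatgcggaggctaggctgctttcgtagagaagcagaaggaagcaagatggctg
TET3, chr2:73984660-73984939, plus strand: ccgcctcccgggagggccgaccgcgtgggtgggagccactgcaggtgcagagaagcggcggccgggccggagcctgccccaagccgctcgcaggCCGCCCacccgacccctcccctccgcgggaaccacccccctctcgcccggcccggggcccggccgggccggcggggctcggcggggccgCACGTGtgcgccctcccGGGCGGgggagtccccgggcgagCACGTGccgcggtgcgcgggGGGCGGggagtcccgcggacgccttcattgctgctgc
DNMT1, chr19:10194924-10195203, minus strand: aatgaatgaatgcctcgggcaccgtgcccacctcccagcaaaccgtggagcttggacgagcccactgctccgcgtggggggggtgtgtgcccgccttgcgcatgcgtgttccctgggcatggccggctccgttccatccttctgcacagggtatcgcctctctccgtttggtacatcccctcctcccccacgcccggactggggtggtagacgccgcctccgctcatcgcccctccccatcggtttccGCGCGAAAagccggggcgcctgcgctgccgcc
UHRF1, chr19:4909251-4909530, plus strand: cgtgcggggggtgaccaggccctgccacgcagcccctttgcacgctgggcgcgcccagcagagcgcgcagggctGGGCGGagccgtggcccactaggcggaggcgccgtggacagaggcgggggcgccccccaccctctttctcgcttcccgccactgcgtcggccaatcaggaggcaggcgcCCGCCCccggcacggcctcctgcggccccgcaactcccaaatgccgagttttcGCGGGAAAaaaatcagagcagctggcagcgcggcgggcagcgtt

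Among the canonical start regions that of TET1 stood apart. It held 9 CpG, fewer than any other of the 8 found and under the median of 12 over all start regions. The 7 others held from 22 in TDG to 41 in DNMT3A, with 40 in TET3 and 35 in TET2. DNMT3A lay above 95.7% of all start regions in CpG count, and TET3 above 94.9%. The E2F sequences, bound by factors that drive genes of DNA replication, occurred in DNMT1 and UHRF1, where 3.12% of all start regions hold a match. The E-box, bound by the MYC and USF families among others, occurred in TET3 with 2 matches and in TDG with 1, where 6.92% of all start regions hold it. The GC box, bound by SP1 and related factors, occurred in 5 of the 8 genes, where 44.003% of all start regions hold it. DNMT3A and TET1, which both rose, shared none of these motifs in the regions read, since that of TET1 had none.

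DNMT3B (ENSG00000088305, chromosome 20, 32762385 to 32809359 on the plus strand of GRCh38) was by far the most abundant of the 10 genes. Levels of different genes were compared as CPM per kilobase of the canonical transcript. On that scale DNMT3B stood at 516 ± 6.08 (SD, n = 3) in PEG and HS and 511 ± 6.15 (SD, n = 3) in E8 control, 9.10 times the level of DNMT1, which came next. In CPM it was measured at 2209.8, 2246 and 2261 in PEG and HS replicates 1 to 3 and at 2186, 2224 and 2237 in E8 control replicates 1 to 3. The media overlapped, and the log2 fold change of 0.02 (SE 0.023) had a 95% interval of -0.03 to 0.06. DNMT3B shares no run of 31 bases with the transcripts of any other gene, which holds for no other of the 10.

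Below DNMT3B, the order in E8 control by CPM per kilobase was DNMT1 (56.2 ± 0.519), UHRF1 (27.03 ± 0.313), TDG (25.6 ± 0.793), DNMT3A (21.8 ± 0.325), UHRF2 (19.3 ± 0.666), TET1 (16.4 ± 0.511), TET3 (6.94 ± 0.0497), TET2 (0.571 ± 0.0395) and DNMT3L (0.0698 ± 0.0261), each with n = 3. No neighbours in this order overlapped among the E8 control libraries. The 5 genes from UHRF1 to TET1 lay close together, with steps of 1.05 to 1.18 times. In PEG and HS the order differed only in UHRF1 and TDG, which changed places at 25.6 ± 0.653 and 26.999 ± 0.299. All 3 TDG libraries lay above all 3 UHRF1 libraries there, and the only neighbours whose PEG and HS libraries overlapped were UHRF2 and TET1. Order within the middle group depends on transcript length. With the longest annotated transcript 2 of the 10 genes changed rank in E8 control, and with the union of all exons 5 did. UHRF1 then came before DNMT1, whose exons add up to 15.379 kb against 5.274 kb for its canonical transcript, and TET1 came before DNMT3A (13.781 kb against 9.421 kb) and UHRF2 (9.919 kb against 3.576 kb). DNMT3B first, and TET3, TET2 and DNMT3L last, were the same with all 3 lengths.

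**Figure D2:**
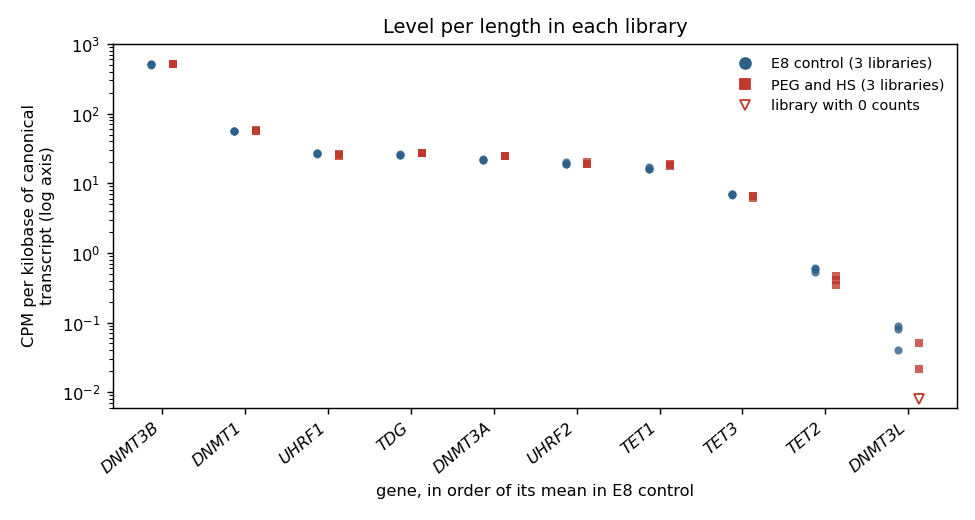
CPM per kilobase of the canonical transcript (log axis) in each library for the 10 genes, ordered by their mean in E8 control, with circles for E8 control and squares for PEG and HS (3 libraries each) and an open triangle at the foot of the plot for the library with 0 counts of DNMT3L. Levels span from about 511 for DNMT3B to 0.0698 for DNMT3L in E8 control, and the media lie close together beside that span.

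DNMT3A (ENSG00000119772, chromosome 2, 25227855 to 25342590, minus strand), the other de novo methyltransferase with catalytic activity, was higher in PEG and HS. It was measured at 231, 231 and 230.1 CPM in PEG and HS replicates 1 to 3 and at 206, 208 and 202 CPM in E8 control replicates 1 to 3. The PEG and HS libraries differed among themselves by under 1 CPM, and all lay above all E8 control libraries. The group means were 230.5 ± 0.337 CPM and 206 ± 3.07 CPM (SD, n = 3 each), with a log2 fold change of 0.17 (SE 0.026, 95% interval 0.11 to 0.22, adjusted p = 0.000226 by edgeR's quasi-likelihood test). DNMT3A remained called with each library left out in turn. Among the 10068 other tested genes with a mean of at least 10 CPM, those with the most similar pattern over the 6 libraries were GART (Pearson r = 0.998), DOCK6 (r = 0.998) and PABPC4 (r = 0.997) in log2 CPM. These r are descriptive, since the libraries form 2 groups, and 526 genes had an r over 0.95.

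DNMT3L (ENSG00000142182, chromosome 21, 44246339 to 44262216, minus strand) had 1, 2 and 0 counts in PEG and HS replicates 1 to 3 and 3, 4 and 2 counts in E8 control replicates 1 to 3. These are 3 counts of 95532011 and 9 counts of 95863166, beside 214500 and 211943 counts of DNMT3B. The ratio of PEG and HS to E8 control was 0.334, with an exact 95% counting interval of 0.0582 to 1.34, so no difference was detectable at this depth (adjusted p = 0.298 by edgeR). Of the 31-base words in its transcripts, 25.7% recur in ENSG00000279493 (chromosome 21, 5011799 to 5017145), annotated as an artifact and made up wholly of DNMT3L sequence. That entry had 0 counts in each library. How reads that match both places were counted is not given in the sources used here, which limits the level stated for DNMT3L.

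DNMT1 (ENSG00000130816, chromosome 19, 10133342 to 10231286, minus strand), the maintenance methyltransferase, was nearly level between media. It was measured at 299, 301 and 305 CPM in PEG and HS replicates 1 to 3 and at 299, 296 and 294 CPM in E8 control replicates 1 to 3. The lowest PEG and HS library (299.3 CPM) lay just above the highest E8 control library (299.2 CPM). The log2 fold change was 0.03 (SE 0.025, 95% interval -0.03 to 0.08, adjusted p = 0.489 by edgeR). The call changed with 1 alternative. That alternative was a correction of every library for GC content and transcript length, added after the data were seen. It also re-centred each library on the mean log2 deviation of its genes from their average over libraries. With these changes made together, the log2 fold change was 0.08 and the adjusted p by edgeR 0.0162.

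UHRF1 (ENSG00000276043, chromosome 19, 4903080 to 4962154, plus strand), which binds hemimethylated DNA and recruits DNMT1, was at 97.6, 99.2 and 103 CPM in PEG and HS replicates 1 to 3 and at 106, 106 and 104 CPM in E8 control replicates 1 to 3. The media did not overlap, but UHRF1 did not pass the test, with a log2 fold change of -0.08 (SE 0.031, 95% interval -0.14 to -0.01) and an adjusted p of 0.081 by edgeR. Of its 31-base words, 26.98% recur elsewhere, most of them in a processed pseudogene that is not among the counted genes. UHRF2 (ENSG00000147854, chromosome 9, 6413151 to 6507054, plus strand), its paralogue, was at 73.1, 67.6 and 66.6 CPM in PEG and HS replicates 1 to 3 and at 71.8, 67.3 and 68.3 CPM in E8 control replicates 1 to 3. These overlapped fully, and the 95% interval of the log2 fold change was -0.08 to 0.09.

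TET1 (ENSG00000138336, chromosome 10, 68560337 to 68694487, plus strand), the TET enzyme with the highest level here, was higher in PEG and HS. It was measured at 180.2, 172 and 177.9 CPM in PEG and HS replicates 1 to 3 and at 155, 155 and 164 CPM in E8 control replicates 1 to 3, with no overlap. The means were 176.6 ± 4.44 and 158 ± 4.91 CPM (SD, n = 3 each), with a log2 fold change of 0.16 (SE 0.031, 95% interval 0.09 to 0.23, adjusted p = 0.00136 by edgeR). With each library left out in turn it remained called.

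TET2 (ENSG00000168769, chromosome 4, 105145875 to 105279816, plus strand) went the other way and, of the 9 genes with more than 12 counts, had the largest change. It was measured at 3.35, 3.93 and 4.46 CPM in PEG and HS replicates 1 to 3 and at 5.67, 5.73 and 5.04 CPM in E8 control replicates 1 to 3, again with no overlap. The means were 3.91 ± 0.556 and 5.48 ± 0.379 CPM (SD, n = 3 each), a log2 fold change of -0.48 (SE 0.12, 95% interval -0.74 to -0.22, adjusted p = 0.00836 by edgeR). It rests on 896 counts over the 6 libraries, and without PEG and HS replicate 1, its lowest library, the log2 fold change was -0.38 and the adjusted p by edgeR 0.0502.

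TET3 (ENSG00000187605, chromosome 2, 73984910 to 74108176, plus strand) was at 80.2, 78.1 and 74.9 CPM in PEG and HS replicates 1 to 3 and at 84.1, 83.9 and 83.0 CPM in E8 control replicates 1 to 3. The libraries did not overlap, and the log2 fold change was -0.11 (SE 0.034, 95% interval -0.18 to -0.03, adjusted p = 0.0316 by edgeR). This call was the least stable of the 4. It was lost when any library but PEG and HS replicate 1 was left out, with an adjusted p of up to 0.139, and with DESeq2 (adjusted p = 0.0532). After correction for GC content and length the log2 fold change was -0.02 (adjusted p = 0.593 by edgeR).

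TDG (ENSG00000139372, chromosome 12, 103965822 to 103988874, plus strand), the glycosylase that removes oxidised methylcytosine, was at 87.0, 85.3 and 85.5 CPM in PEG and HS replicates 1 to 3 and at 80.4, 79.9 and 84.5 CPM in E8 control replicates 1 to 3. The media did not overlap, but the gene did not pass the test (log2 fold change 0.07, SE 0.033, 95% interval 0.003 to 0.14, adjusted p = 0.121 by edgeR). Of its 31-base words 14.2% recur in other transcripts, most of them in the pseudogene TDGP1, which is not counted.

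Within each library, ratios of levels per kilobase do not depend on how libraries are scaled against each other. TET1 stood to TET3 as 2.85 ± 0.116 in PEG and HS and 2.37 ± 0.0907 in E8 control (SD, n = 3 each), a rise of 20.4%. As shares of the summed TET level, TET1 made up 72.8% ± 0.663 in PEG and HS and 68.6% ± 0.914 in E8 control, TET3 25.6% ± 0.798 and 29.0% ± 0.709, and TET2 1.62% ± 0.247 and 2.39% ± 0.205. Each of these shares was separate between media. DNMT3A stood to DNMT3B as 0.0474 ± 0.000626 and 0.0427 ± 0.000981, and UHRF1 to DNMT1 as 0.447 ± 0.00723 and 0.481 ± 0.00480, also without overlap. The summed TET level was 0.0422 ± 0.00123 of the summed level of DNMT1, DNMT3A and DNMT3B in PEG and HS and 0.0406 ± 0.000572 in E8 control. In that ratio the lowest PEG and HS library (0.0413) was barely above the highest E8 control library (0.0412). These ratios are given as a description, with no test, and that of DNMT3L to DNMT3B was not computed because DNMT3L had 0 counts in a library.

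**Figure D3:**
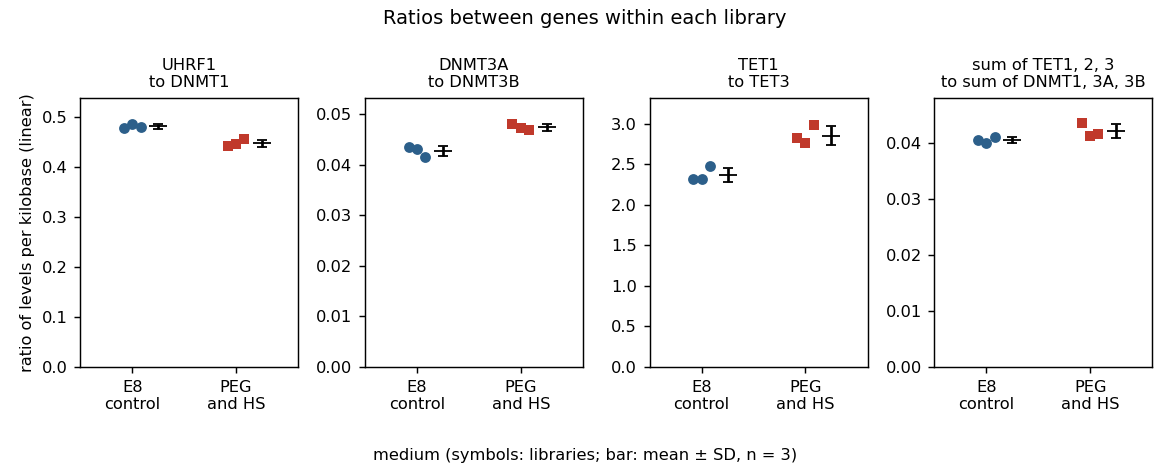
Ratios of levels per kilobase within each library (linear vertical axes from 0, a separate scale in each panel), with circles for E8 control, squares for PEG and HS and a bar for mean ± SD (n = 3). TET1 to TET3 and DNMT3A to DNMT3B are higher in PEG and HS and UHRF1 to DNMT1 is lower, while the summed TET to DNMT ratio lies between 0.0400 and 0.0436 in all 6 libraries.

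Genes that supply, guide or read methylation were taken from lists written from general knowledge. Values that rise or fall are given from E8 control to PEG and HS, as mean ± SD with n = 3. Among 18 tested genes of the S-adenosylmethionine and folate cycle, which makes the methyl donor, 9 were called and all 9 were higher in PEG and HS, a share of 50% beside 25.3% over all genes. Their changes were small. MAT2A, an enzyme that makes S-adenosylmethionine, rose from 371 ± 13.0 to 431 ± 12.9 CPM (log2 0.22, SE 0.031, edgeR adjusted p = 0.000101). MTAP, which salvages methionine, changed most among the 9, from 78.2 ± 2.14 to 93.9 ± 2.81 CPM (log2 0.26, SE 0.034, edgeR adjusted p = 3.52e-05). The median log2 fold change of this list was 0.09, and 0.12 after the correction for GC content and length, where 10 genes were called, again all higher.

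Of 21 cofactors of maintenance and targeting, 4 were called and all 4 were higher (19.0% of those tested, under the share over all genes). The list's median log2 fold change was -0.00076. CDCA7, the partner of the remodeller HELLS, rose from 106 ± 4.17 to 121 ± 2.41 CPM (log2 0.18, SE 0.034, edgeR adjusted p = 0.000913), and KDM1B from 11.8 ± 0.519 to 14.2 ± 1.20 CPM. The other two were USP7 and KDM1A. HELLS itself, whose means were 117 ± 6.94 and, with the additives, 126 ± 3.53 CPM, did not pass (edgeR adjusted p = 0.0651). The naive-state factor DPPA3, which interferes with UHRF1, was low in both media at 1.63 ± 0.390 and, with the additives, 1.56 ± 0.118 CPM. After the correction for GC content and length 8 of the 21 were called, 7 of them higher. Of the 10 readers of methylated or free CpG, MBD2 alone was called (10% beside 25.3% over all genes), falling from 23.3 ± 0.633 to 20.3 ± 0.349 CPM (edgeR adjusted p = 0.00906), though 2 readers passed with some of the alternatives.

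Of 15 genes that act in the excision and repair of modified cytosine, 5 were called (33.3%, beside 25.3% over all genes), and the median log2 fold change was 0.09. NEIL3 and LIG3 were higher, with log2 fold changes of 0.37 (SE 0.093) and 0.09 (SE 0.030). GADD45G, GADD45B and XRCC1 were lower. GADD45G fell from 3.50 ± 0.291 to 1.70 ± 0.119 CPM (log2 -1.04, SE 0.15, edgeR adjusted p = 9.19e-05) and GADD45B from 2.89 ± 0.113 to 1.51 ± 0.129 CPM. GADD45 proteins are stress-induced adaptors that have been tied to active demethylation, and both of these genes are at low levels. GADD45A, with a higher level, did not fall. Its means were 8.86 ± 0.591 and, with the additives, 9.66 ± 0.242 CPM (log2 0.13, SE 0.075, edgeR adjusted p = 0.242). XRCC1, a scaffold of base repair, fell from 53.3 ± 1.23 to 46.6 ± 0.160 CPM. Of 11 TET partners and genes of 2-oxoglutarate metabolism, 3 were called and all were higher, a share of 27.3% that lies near the 25.3% over all genes. CXXC5, a CpG-binding partner of TET proteins, rose from 94.6 ± 1.01 to 112 ± 1.56 CPM (log2 0.24). IDH1, which makes the TET cosubstrate 2-oxoglutarate, rose from 361 ± 2.40 to 415 ± 2.95 CPM (log2 0.20), and IDH3A was the other.

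**Figure D4:**
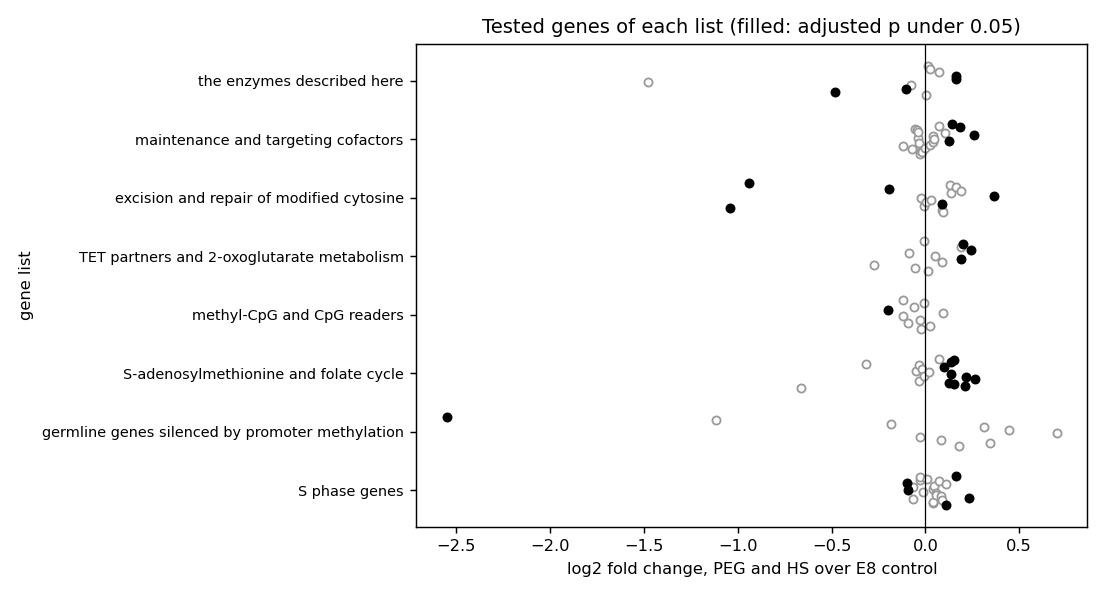
Log2 fold change between PEG and HS and E8 control (horizontal axis) of every tested gene in 8 lists (vertical axis), filled where the adjusted p is under 0.05. The 9 called genes of the S-adenosylmethionine and folate cycle all lie right of 0, the 4 called enzymes lie on both sides, and the open point at -1.48 among the enzymes is DNMT3L with 12 counts.

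Of 20 germline genes listed as silenced by promoter methylation, 16 lay under 1 CPM in all 6 libraries, 10 had enough counts to be tested and 4 had none. DAZL, an RNA-binding protein of germ cells, was the only one called (10% of those tested, beside 25.3% over all genes). It fell from 1.72 ± 0.0262 to 0.284 ± 0.127 CPM (log2 -2.55, SE 0.31, edgeR adjusted p = 1.69e-05) on 192 counts, while the median log2 fold change of the tested list was 0.13. The summed level of the 20 genes was 37.9 to 39.3 CPM in PEG and HS and 38.1 to 40.3 CPM in E8 control. Most of it came from PIWIL2 and TEX15, which had group means of 16.4 to 17.9 CPM and did not pass the test. These genes were thus expressed in both media, and the sum says little of the silent ones. DNA methylation itself was not measured in these libraries.

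DNMT1 and UHRF1 are expressed mainly in S phase, so replication genes were set beside them. Of 21 S phase genes 5 were called, 3 higher and 2 lower (23.8%, near the share over all genes), with a median log2 fold change of 0.04. RRM2, which makes deoxyribonucleotides, rose most, from 251 ± 3.50 to 295 ± 11.8 CPM (log2 0.23, SE 0.031, edgeR adjusted p = 4.19e-05). CCNE1 and CDC6 were also higher, and CDT1 and RRM1 were lower by 0.10 and 0.09 on the log2 scale. The 2 lower calls were absent without PEG and HS replicate 1, which left 2 genes called, and without replicate 2, which left 3, and 7 of 8 calls were higher after the correction for GC content and length.

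The libraries carried the markers of pluripotent cells. Of 8 such genes 7 were called (87.5%). Over all tested genes 25.3% were called, a share to set beside each count of calls in this paragraph. NANOG (log2 0.55, SE 0.027) and L1TD1 (0.36, SE 0.035) rose most of the 4 higher ones, and SOX2 (-0.59, SE 0.028) and LIN28A (-0.30, SE 0.030) fell most of the 3 lower ones. Their summed level was 6650.4 to 6836 CPM in PEG and HS and 6377 to 6474 CPM in E8 control. Naive markers summed to 28.8 to 31.2 CPM and 28.0 to 31.4 CPM, and KLF17 had 2 counts in all. The sum held opposite changes, since 4 of the 6 tested were called, TFCP2L1 (log2 0.57, SE 0.066) and SUSD2 (0.32, SE 0.086) as higher and KLF5 (-0.996, SE 0.20) and KLF4 (-0.86, SE 0.089) as lower. Markers listed for another cell type moved with the medium. All 6 neuroectoderm markers were called as lower in PEG and HS, with a sum of 28.5 to 32.6 CPM against 121 to 125 CPM. LHX5 (log2 -2.37, SE 0.086) and OTX2 (-2.10, SE 0.047) fell most and held most of that sum. From E8 control to PEG and HS, mean OTX2 fell from 79.4 to 18.6 CPM and LHX5 from 29.6 to 5.73 CPM. HES5 lay under 1 CPM with 48 counts. With DESeq2 5 of the 6 were called, and also without PEG and HS replicate 1 or 2 or E8 control replicate 1 or 2. Also lower were 3 of 6 tested trophectoderm and amnion markers (a sum of 4.74 to 4.96 CPM against 13.5 to 14.3 CPM), namely TFAP2A (log2 -3.30, SE 0.20), KRT7 (-0.92, SE 0.11) and HAND1, which had under 1 CPM. The HAND1 call rests on 16 reads over all libraries, with 1, 0 and 0 of them from PEG and HS replicates 1 to 3. Calls in this list fell from 3 to 2 with DESeq2 and with a stricter filter on low counts. The same drop followed when PEG and HS replicate 2 or 3 or E8 control replicate 1 or 2 was left out. CDX2, which defines trophectoderm, lay under the limit for testing. Mesoderm and endoderm markers summed to at most 7.34 and 4.26 CPM in any library. Of 5 and 3 tested, 1 (TBX6, lower by 0.48 on the log2 scale) and 0 were called by edgeR. The TBX6 call was absent without E8 control replicate 3. Among those not called, FOXA2 (log2 -0.45) and MIXL1, which was higher (log2 0.44), had an unadjusted edgeR p under 0.05. Whether these markers have a part in the differences of DNMT3A, TET1, TET2 and TET3 was not tested.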

How the data were processed

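Bulk RNA of 6 libraries was measured, 3 grown in PEG and HS and 3 in E8 control, grouped by the treatment field of the labels. Per the labels, libraries were stranded and made from polyadenylated RNA. The submitters' processing notes name Trim Galore 0.6.7, STAR 2.6.1 and GRCh38, and the authors deposited raw counts per gene, without normalization. The study's methods also name the nf-core/rnaseq pipeline. The counting tool, its strand setting and its handling of reads with several matches are not stated in the sources used here. Library totals ranged from 26991279 to 36185138 counts.

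Of the 19977 identifiers, 19916 matched GENCODE 44, which gave symbols, GRCh38 coordinates and lengths, and 61 did not. Genes whose counts summed to 10 or more were tested with edgeR 4.0.16 in R 4.3.3 (TMM factors, glmQLFit and glmQLFTest, no covariate), adjusted over all genes tested. SE was taken as the size of the log2 fold change divided by the root of F, and intervals use the t distribution of the fit at 95%. The script was tested on simulated data. Alternatives were DESeq2 1.42.0, limma-voom (limma 3.58.1), other normalizations and filters, the replicate number as a block, a test against a 1.5-fold change, each library left out and, added after the data were seen, a correction for GC content and length. That correction also re-centred each library on the mean log2 deviation of its genes, on top of the TMM factors. Replicates of a medium differed by more than sampling noise (2.58 to 3.52 in chi-square over its degrees of freedom).

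The genes described and the lists were chosen with earlier results of these data known. From each list, up to 2 called genes in each direction are named, those with the largest change that had 1 CPM or more throughout the medium where they were higher. Other list genes were named after their values were seen, to complete counts of 5 or fewer calls or as low, unchanged or uncalled members. Counting intervals cover counting error only.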

Additional observations from a re-analysis of the deposited data

How the results depend on the processing

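DNMT3A and TET1 kept their direction and their call under each alternative but the test against a 1.5-fold change, under which 0 of the 10 enzymes (4 by edgeR and 3 by DESeq2 against no change), 6 of the 139 tested list genes and 264 of all genes (30 higher, 234 lower) were called. DNMT3B, UHRF1, UHRF2, TDG and, where tested, DNMT3L were called under none. DESeq2 and library size alone each left 3 of the 10 called, without TET3 (adjusted p = 0.0532 with DESeq2, 0.0510 with library size alone). With any 1 library left out, 3 of the 10 (TET2 lost without PEG and HS replicate 1, TET3 without any other) and 3114 to 3674 of all genes were called. The correction for GC content and length called 5007 genes, 3017 higher and 1990 lower, against 2016 higher and 2157 lower without it, and kept the number of called enzymes at 4 by gaining DNMT1 and losing TET3. Because it also re-centred each library, its parts cannot be told apart here, and the cause was not tested. The order of levels per length moved for 2 genes with the longest transcript and 5 with the union of exons. No enzyme shares at least 50% of its transcript words with another counted gene, so no counts were added together. The replicate numbers of the labels did not pair the samples (correlation of same-numbered deviations -0.015 to 0.060). With the replicate block 4444 genes, 51 list genes and 4 of the 10 enzymes were called. Depth limits DNMT3L and, to a lesser degree, TET2.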
